A study of Mus musculus with 8 samples.

Results

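Stem and progenitor cells of wild-type mouse fetal liver were compared with the same sorted population of wild-type adult bone marrow. The comparison uses 5 of the 8 arrays of the study, chosen by their titles: 3 of fetal liver at E14.5 and 2 of bone marrow from mice aged 8 to 12 weeks, all Hmga2+/+. The other 3 arrays, of Hmga2-/- fetal liver, entered neither group mean. They served for the estimate of the spread, the background level, filters on mean level, list means relative to all 8 arrays and most alternative settings. Cells were sorted fresh as Lin-Sca1+cKit+, which means negative for antigens of mature blood lineages and positive for the surface proteins Sca1 and cKit. Their RNA was amplified before hybridisation to Affymetrix Mouse Gene 1.0 ST arrays, which read a gene through several probe sets along its exons. The labels used here state neither strain, sex, pooling of animals nor scan batch. The labels call the samples of a group biological replicates but do not say that they came from separate animals, so a p-value here reflects sample-to-sample spread, which may be technical.

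In the mouse fetus the liver is the main site of blood formation in mid-gestation, and its stem cells divide and expand in number. Most stem cells of adult marrow are quiescent, and the organ around them makes mature blood at a steady rate. The series title names Lin28b, the let-7 microRNAs and Hmga2: Lin28b blocks the maturation of let-7, let-7 lowers the mRNA of its targets, and Hmga2, an architectural chromatin protein, is such a target. The comparison asks which transcripts accompany the fetal and the adult state. The Lin-Sca1+cKit+ gate holds stem cells and early progenitors together, and in such bulk samples fewer cells of a type and less RNA per cell cannot be told apart.

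Levels are log2 RMA intensities averaged over the probe sets of a gene, and a difference is the fetal minus the adult group mean, given with its standard error (SE) from limma. A gene was called at a limma p under 0.05 after Benjamini-Hochberg adjustment over 19958 genes. Background was set at 5.97 on the log2 scale, the 95th percentile of 980 olfactory receptor genes. Where the dimmer group mean lay below it, each array of that group below background was raised to it, and the fold is given as "at least", against the mean of the arrays so raised. Genes below it in both groups get no fold.

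Correlations were taken over the 9638 genes whose mean over all 8 arrays lay above background. Fetal arrays correlated with each other at r = 0.906 to 0.937, the adult pair at 0.869, and arrays across the groups at 0.801 to 0.868. The gate left its mark unevenly. Kit, the receptor for stem cell factor, read 9.99, 10.07 and 9.78 in fetal cells and 10.28 and 10.17 in adult cells (difference -0.28, SE 0.17, adjusted p = 0.411). Ly6a, which encodes Sca1, read 7.39, 6.64 and 6.65 in fetal cells and 8.99 and 8.44 in adult cells. The groups did not overlap for either gene, yet the Ly6a difference of -1.82 also missed the threshold (SE 0.44, adjusted p = 0.0592). Of 10 lineage antigens measured, 5 lay below background on all 5 arrays and none was called. Their mean per array ran from 5.68 to 5.92 in fetal cells and from 5.67 to 5.70 in adult cells.

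The fetal arrays were not alike in 2 respects that touch the results below. The mean level of 3 Y-linked genes was 5.74, 7.40 and 3.88 on fetal replicates 1 to 3, against 4.13 and 4.02 on the adult arrays. Y-linked signal thus stood above the others on fetal replicates 1 and 2, though on replicate 1 this mean lay under the background of 5.97. Xist, also sex-linked, read 10.12, 8.67 and 10.18 on fetal replicates 1 to 3 and 10.80 and 11.08 on the adult arrays. Markers of hepatocytes, the other main cell of fetal liver, averaged 5.79 over the list on the highest fetal array and 5.39 on the lowest, against 5.47 to 5.50 on the adult arrays. The highest was replicate 3, where Apoa2, an apolipoprotein gene, read 7.86 and Alb, the albumin gene, 6.65. Of 18 hepatocyte genes, 10 lay below background on all 5 arrays, the fibrinogen genes Fga, Fgb and Fgg among them. The part of these cells in the results was not tested.

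Of all genes, 637 (3.19%) were called. Fetal cells had 471 genes called higher, 2.36% of those tested, and 166 called lower, 0.832%. The fetal and adult arrays of all 637 did not overlap, which was also true of 15.7% of all genes on the higher side and 20.1% on the lower side. Of the calls, 338 on the higher and 120 on the lower side differed at least 2-fold as measured. The median difference over all genes was -0.06. Adult levels lay below background in 91 of the genes called higher, and fetal levels in 107 of those called lower. Of these, 4 and 21 lay below it in both groups. The 2 sides thus differed in kind: most genes higher in fetal cells were also measured above background in adult cells, while most of those lower in fetal cells were not above background there.

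The choice of arrays and of probe set summary moved these counts. With the spread estimated from the 5 wild-type arrays alone, 74 genes were called higher and 46 lower, and with medians in place of means over probe sets 128 and 51. Without fetal replicates 1, 2 and 3 in turn, 270, 204 and 140 genes were called higher and 90, 83 and 85 lower. Without adult replicates 1 and 2 in turn, 266 and 416 were higher and 107 and 158 lower. In each of these 5 fits 73 of the 471 and 43 of the 166 were called again, and those named below are said to have held. With the level of Y-linked genes as a covariate, an alternative chosen after seeing the data, 198 were higher and 85 lower, and 0 of the 637 changed sign. Quantile normalization evened the split to 231 higher and 213 lower. It left 0 of the 637 with the opposite sign.

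**Figure D1:**
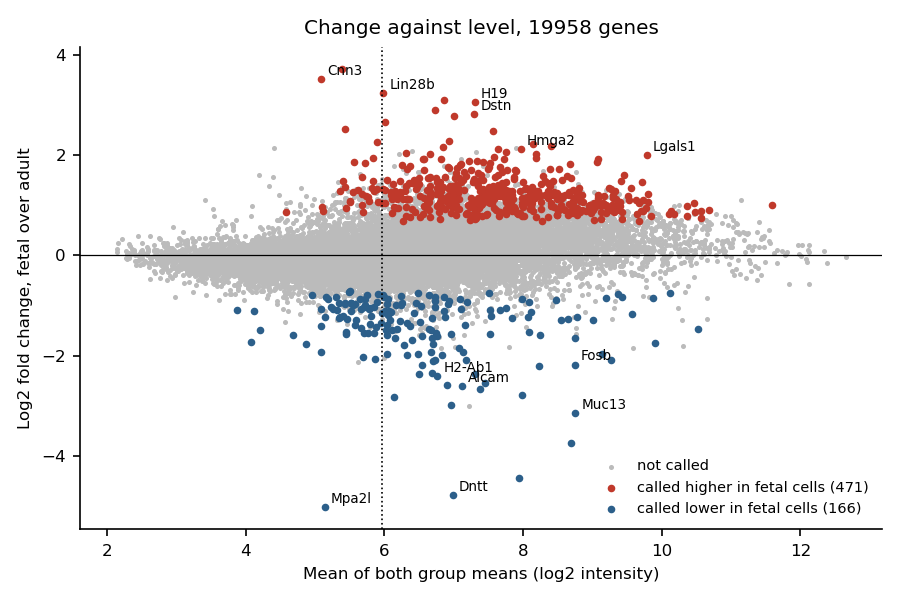
Mean of the fetal and adult group means (x axis, log2 intensity) against the log2 fold change of fetal over adult (y axis) for 19958 genes. Red points are the 471 genes called higher in fetal cells and blue points the 166 called lower; the dotted line is the background at 5.97, and selected genes are labelled. Called genes on the lower side lie closer to the background than those on the higher side.

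Of 10 measured genes of the Lin28b axis, 6 were higher in fetal cells and 5 of these held. Lin28b read 7.17, 7.46 and 8.15 in fetal cells and 4.42 and 4.31 in adult cells, where it was not above background, and was at least 3.09-fold higher (3.23, SE 0.28, adjusted p = 0.0018). The 3 Igf2bp genes encode mRNA-binding proteins and are let-7 targets. Igf2bp1 was at least 4.61-fold and Igf2bp2 at least 5.44-fold higher. Igf2bp3 read 8.36, 8.29 and 8.53 in fetal cells against 5.69 and 5.56 in adult cells, at least 5.36-fold higher. Hmga2 itself was above background in both, at 9.24, 9.01 and 8.83 in fetal cells and 6.61 and 7.19 in adult cells, 4.35-fold higher (2.12, SE 0.21, adjusted p = 0.00235). Arid3a, a transcription factor and let-7 target, was the member that did not hold (0.99, SE 0.18, adjusted p = 0.024): it passed in the fit without fetal replicate 2 alone (up to 0.0729). Lin28a, the paralogue of Lin28b, read 5.74, 5.39 and 5.32 in fetal cells and 5.61 and 5.54 in adult cells, below background in both groups. The enzymes that act downstream of LIN28 on let-7 precursors gave small differences: Tut4, a terminal uridyltransferase, 0.01 (SE 0.19), its paralogue Tut7 -0.27 (SE 0.18), and the exonuclease Dis3l2 0.06 (SE 0.33), none called.

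Mature let-7 was not analysed here, and no let-7 host gene on the list had a value. The family is shown because its members share the seed through which they pair with targets, bases 2 to 8, set in capitals. The sequences are from RefSeq (GRCm38.p6).
mmu-let-7a-5p: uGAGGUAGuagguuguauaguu
mmu-let-7b-5p: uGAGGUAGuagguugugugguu
mmu-let-7d-5p: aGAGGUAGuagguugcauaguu
mmu-let-7g-5p: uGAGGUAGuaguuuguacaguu
mmu-miR-98-5p: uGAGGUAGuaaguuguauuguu
All 9 mature names of the family in that table carry this 1 seed, and they differ in the bases after it.

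Besides the axis, the genes furthest apart on the fetal side fall into several roles. Slc31a1, the copper importer, was at least 4.30-fold higher, at 8.29, 8.35 and 7.58 in fetal cells against 5.80 and 5.79 in adult cells (adjusted p = 0.00605). Pde3b, a cyclic nucleotide phosphodiesterase, was at least 3.87-fold higher (adjusted p = 0.00196). Both held without each array. Lgals1, the carbohydrate-binding protein galectin-1, was bright in both groups, at 10.85, 10.58 and 10.91 in fetal cells and 9.23 and 8.34 in adult cells, 4.0-fold apart (adjusted p = 0.00718). Smn1, which assembles splicing ribonucleoproteins, read 9.19, 9.08 and 9.22 in fetal cells and 7.14 and 7.29 in adult cells, 3.86-fold apart (adjusted p = 0.00167). Tstd3 was at least 1.77-fold higher and held, as Lgals1 and Smn1 did.

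Other fetal-side genes depended on single arrays. Postn, the matrix protein periostin, was at least 2.55-fold higher (adjusted p = 0.017) and lost its call without fetal replicate 2 or adult replicate 1 (adjusted p up to 0.0651). Sar1b, a GTPase of vesicle budding at the endoplasmic reticulum, differed by 2.12 (SE 0.45, adjusted p = 0.0402), with the adult arrays at 5.66 and 7.50. It kept its call in the fit without adult replicate 2 and lost it in the other 4 (adjusted p up to 0.124). The small GTPase gene Rras2, at least 2.93-fold higher, likewise passed in that fit alone (adjusted p up to 0.0895). Fam136a was at least 3.06-fold higher and lost its call without fetal replicate 1 or 3 or adult replicate 1 (adjusted p up to 0.220). Of the 25 genes taken by size on this side, 17 held.

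DNA replication was the first large group. Origin licensing loads the MCM helicase onto DNA before S phase, through the origin recognition complex, Cdc6 and Cdt1. All 26 measured genes of this list had a difference above 0 (median 0.93), and 9 were called higher, 34.6% against 2.36% of all genes. Dbf4, which activates the kinase that fires origins, read 8.50, 8.37 and 8.16 in fetal cells and 6.85 and 7.10 in adult cells (1.37, SE 0.20, adjusted p = 0.0124). Ticrr, a firing factor, differed by 1.81 (SE 0.27), Mcm10 by 1.28 (SE 0.19), Mcm4, a helicase subunit, by 1.24 (SE 0.20) and Mcm8, a related helicase, by 1.38 (SE 0.21), at least 2.05-fold. The 6 origin recognition genes ran from 0.35 to 1.51 with 2 called, the 6 subunits of the MCM helicase from 0.33 to 1.24 with 1 called, and the 4 GINS genes, which complete the active helicase, from 0.70 to 1.87 with 1 called. The count of 9 rested on single arrays: it was 7, 5 and 4 without fetal replicates 1, 2 and 3, 0 without adult replicate 1 (Dbf4 then had an adjusted p of 0.0501) and 14 without adult replicate 2. It was 2 with the 5 wild-type arrays alone and 4 with medians of probe sets.

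At the replication fork 30 of 36 genes had a difference above 0 (median 0.64), and 3 were called higher, 8.33%. Prim1, the catalytic primase subunit that starts each DNA strand, read 9.39, 9.78 and 9.61 in fetal cells against 7.61 and 7.93 in adult cells, and held. Rpa1, of the complex that coats single-stranded DNA, differed by 1.35 (SE 0.21, adjusted p = 0.0135) and lost its call without adult replicate 1 (adjusted p = 0.0501). Dna2, a nuclease that trims lagging-strand primers, differed by 1.08 (SE 0.20) and lost it without that array or fetal replicate 2 or 3 (adjusted p up to 0.130). The 5 clamp loader genes ran from -0.64 to 0.97 with none called. Without fetal replicates 1, 2 and 3 the list had 3, 3 and 2 calls and without adult replicates 1 and 2 it had 3 and 8, while the 5 wild-type arrays alone gave 1, as did medians of probe sets.

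Nucleotide synthesis, which supplies the fork, had 8 of 31 genes called higher, 25.8%, with a median of 0.64. Rrm1, the large subunit of ribonucleotide reductase, read 9.79, 9.93 and 9.98 in fetal cells and 8.59 and 8.80 in adult cells (1.21, SE 0.17, adjusted p = 0.00995), and held. The others with the smallest p were Nme1, a nucleoside diphosphate kinase (1.32, SE 0.20), the small reductase subunit Rrm2 (1.01, SE 0.16), the guanine enzyme Gmps (1.10, SE 0.18), the purine salvage enzyme Hprt (1.01, SE 0.18) and the CTP synthase Ctps (1.28, SE 0.25). None of these 5 held: Nme1 was lost without adult replicate 1 and Rrm2 without adult replicate 2, both at an adjusted p that rounds to 0.050. Without fetal replicates 1, 2 and 3 the list had 5, 3 and 4 calls, and without adult replicates 1 and 2 it had 6 and 3. The 5 wild-type arrays alone gave 1 and medians of probe sets 3.

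Mitosis was the largest group. Of 72 genes of the mitotic list, 69 had a difference above 0 (median 0.99) and 26 were called higher, 36.1%. Ckap2, a spindle microtubule protein, read 8.14, 7.91 and 7.95 in fetal cells and 6.61 and 6.49 in adult cells (1.45, SE 0.15, adjusted p = 0.00306). Ccna2, the cyclin of S phase and G2, read 9.12, 9.48 and 9.55 against 7.46 and 7.87 in adult cells (1.72, SE 0.20). Ube2c, the ubiquitin-conjugating enzyme of the anaphase-promoting complex, read 9.31, 9.05 and 8.79 against 7.60 and 7.56 in adult cells (1.47, SE 0.19). Each of these held, as did Dlgap5 (1.73), which stabilises spindle fibres, Hmmr (1.53), a centrosome and spindle protein, Birc5 (1.25) and the centromeric histone Cenpa (1.01). Bub1, a checkpoint kinase, differed by 1.45 (SE 0.21) and lost its call without adult replicate 1 (adjusted p = 0.0501).

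By role, 4 of 5 spindle checkpoint genes were called (median 1.2), 5 of 9 mitotic kinases and cyclins (median 1.03), 4 of 16 kinetochore and centromere genes (median 1.08), 3 of 12 kinesins (median 0.83) and 1 of 5 condensins (median 0.88). Kif15, a spindle kinesin, was the largest of the called kinesins, at 9.14, 9.07 and 9.36 in fetal cells against 6.45 and 7.90 in adult cells (2.02, SE 0.34, adjusted p = 0.0196), with the adult arrays far apart. It lost its call without fetal replicate 2 or 3 (adjusted p up to 0.0699). Prr11, a gene of late cell cycle stages, was 5.58-fold higher and held. Ska3, of the complex that couples kinetochores to microtubules, was 3.89-fold higher (adjusted p = 0.0219) and lost its call without any of the fetal replicates (up to 0.0756). Cdca5, which protects cohesin, was 3.81-fold higher (adjusted p = 0.0375) and lost it without each of the 5 arrays (up to 0.149).

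The mitotic list differed between arrays of 1 group as well. Its mean relative to all 8 arrays was -0.02, 0.11 and 0.41 on fetal replicates 1 to 3 and -0.99 and -0.60 on adult replicates 1 and 2. Every fetal array thus lay above both adult arrays, with the fetal array highest in hepatocyte markers also highest here and adult replicate 1 lowest. The count of 26 became 21, 15 and 13 without fetal replicates 1, 2 and 3 and 11 and 31 without adult replicates 1 and 2. After quantile normalization it was 12, at a median of 0.71. It was 4 with the 5 wild-type arrays alone and 4 with medians of probe sets.

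Promoters of mitotic genes often hold TTTGAA, the core of the cell cycle homology region through which they are repressed outside G2 and M phase. Windows were the 250 bases before the start (RefSeq, GRCm38.p6). TTTGAA on either strand was found in 24 of 67 windows of the mitotic list, 35.8%. Of 18963 windows of measured genes, 13.5% held TTTGAA. It was in 45.8% of windows of the called members and 30.2% of those not called, or 9 of 22 genes and 13 of 40. CCAAT on either strand was in 71.6% of windows of the list against 34.5% of all. Called members had CCAAT in 66.7% of windows and those not called in 74.4%. The 4 called members whose match begins nearest to the start are shown, 60 bases each in the direction of the gene, with the match in capitals (TTCAAA is the same motif on the other strand).
Cdk1 (chr10:69352913-69352972, - strand): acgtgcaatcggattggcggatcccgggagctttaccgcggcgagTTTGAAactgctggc
Kif11 (chr19:37376322-37376381, + strand): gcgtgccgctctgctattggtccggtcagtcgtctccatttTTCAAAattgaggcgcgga
Kif15 (chr9:122951021-122951080, + strand): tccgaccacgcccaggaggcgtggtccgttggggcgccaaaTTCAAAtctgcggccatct
Ube2c (chr2:164769869-164769928, + strand): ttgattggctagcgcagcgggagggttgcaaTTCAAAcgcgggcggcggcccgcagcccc
The match begins 15 bases before the start in Cdk1, 19 in Kif11 and Kif15 and 29 in Ube2c. Cdk1, the kinase that drives entry into mitosis, read 7.80, 7.87 and 8.62 in fetal cells and 7.01 and 6.76 in adult cells (1.21, SE 0.25, adjusted p = 0.0348), and lost its call without fetal replicate 2 or either adult array (up to 0.113). Kif11, the kinesin that separates spindle poles, differed by 0.81 (SE 0.17, adjusted p = 0.0367) and lost it without each of the 5 arrays (up to 0.162).

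Genes that set entry into the cycle were less uniform. Of 29 G1 regulators 18 had a difference above 0, and 2 were called higher, 6.90%. Their median was 0.20, against 0.15 over the 9638 genes above background on average. Ccnd1, cyclin D1, read 8.73, 8.80 and 8.68 in fetal cells and 7.03 and 7.52 in adult cells and held. Ccne1, cyclin E1, differed by 1.00 (SE 0.21, adjusted p = 0.041) and lost its call without each array (up to 0.123). Among 7 CDK inhibitors the calls ran both ways. Cdkn2c, p18, read 4.07, 4.28 and 4.01 in fetal cells and 6.01 and 6.07 in adult cells, whose values lie at the background itself, and held, at least 1.05-fold lower. Cdkn1c, p57, an imprinted gene, read 6.95, 6.92 and 7.04 in fetal cells and 6.15 and 6.12 in adult cells (0.83, SE 0.17, adjusted p = 0.0348), and lost its call without each array (up to 0.110). Plk2, a p53-induced kinase, was higher in fetal cells, at 9.06, 8.88 and 8.29 against 6.89 and 7.18 in adult cells (adjusted p = 0.00995), and held.

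Of 36 genes of DNA repair by homologous recombination and the Fanconi pathway, 30 had a difference above 0 (median 0.54) and 6 were called higher, 16.7%. Chek1, the kinase that halts the cycle at stalled forks, read 8.45, 9.03 and 8.72 in fetal cells and 6.86 and 7.24 in adult cells (1.68, SE 0.22, adjusted p = 0.00803). Blm, the helicase mutated in Bloom syndrome, read 8.05, 7.97 and 8.60 against 6.46 and 6.73 in adult cells (1.61, SE 0.21). Both held. Rbbp8, Usp1, Bard1 and Rad51ap1 were called as well, at 0.76 to 1.25, and each lost its call without each of the 5 arrays (adjusted p up to 0.223). The count was 2 without any 1 fetal array or without adult replicate 1, and 3 without adult replicate 2. It was 3 with the 5 wild-type arrays alone and 2 with medians of probe sets.

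**Figure D2:**
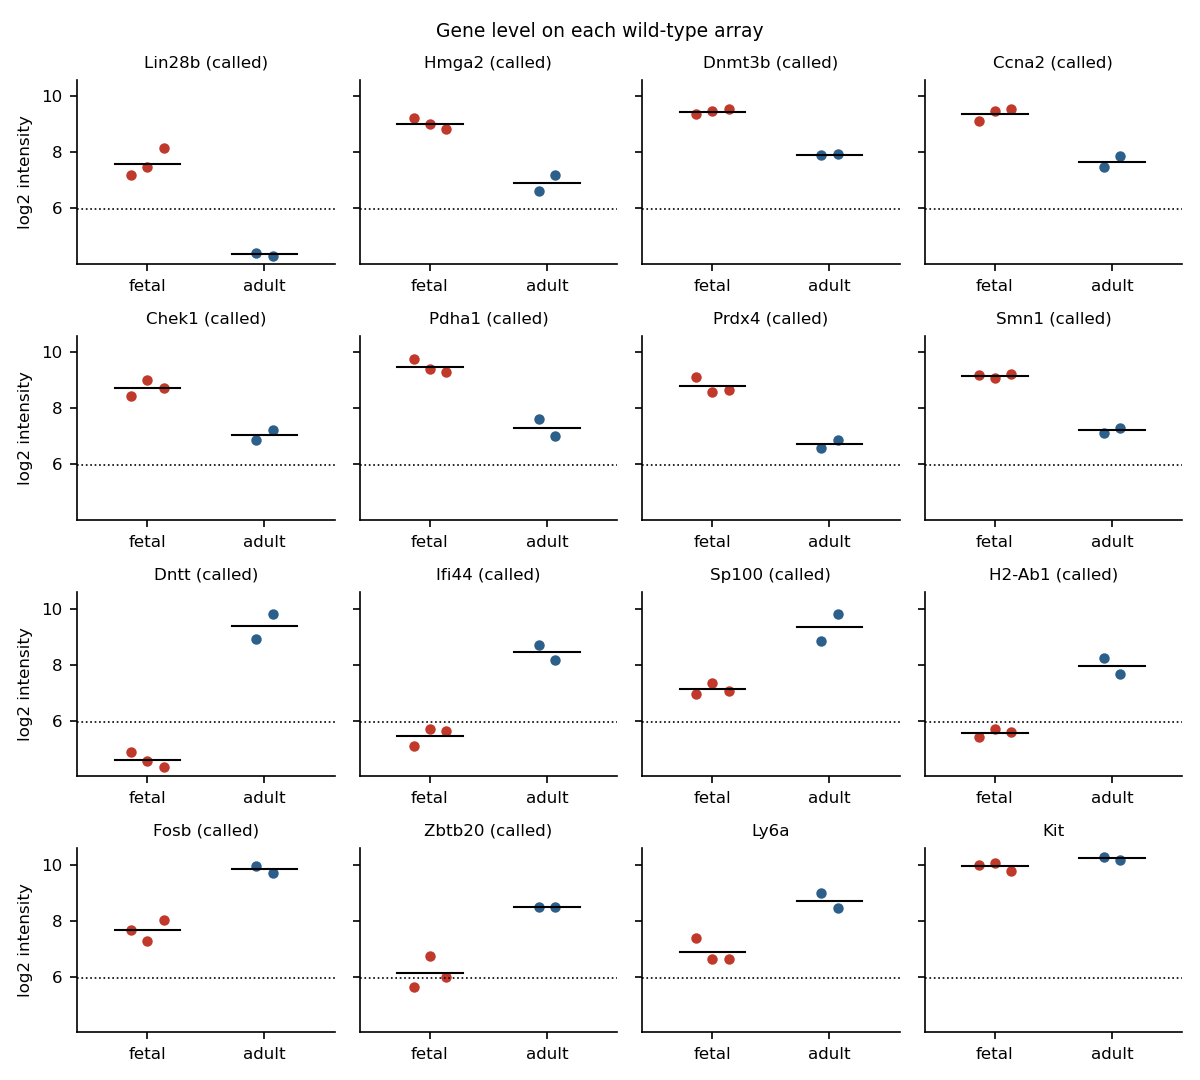
Log2 intensity (y axis) of 16 genes on the 3 fetal arrays (red, left) and 2 adult arrays (blue, right); bars are group means and the dotted line is the background at 5.97. The groups of each gene marked as called do not overlap, and those of Ly6a and Kit do not overlap although neither gene was called.

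Mitochondrial genes formed the second large group on the fetal side. Of 25 genes of the TCA cycle and its entry, 23 had a difference above 0 (median 0.60) and 6 were called higher, 24%. Pdha1, the catalytic subunit of pyruvate dehydrogenase, which links glycolysis to the cycle, stood apart from the others: it read 9.77, 9.40 and 9.29 in fetal cells and 7.61 and 7.0 in adult cells, 4.53-fold higher (2.18, SE 0.27, adjusted p = 0.00582), and held. The other called members were smaller changes: Sdhb of succinate dehydrogenase at 1.17 (SE 0.20), Mdh2, malate dehydrogenase, at 1.22 (SE 0.24), Cs, citrate synthase, at 0.92 (SE 0.18), and Dld and Pdhx of the same dehydrogenase complex at 0.87 (SE 0.16) and 1.28 (SE 0.28). None of these 5 held, with adjusted p up to 0.138. The count was 3, 3 and 1 without fetal replicates 1, 2 and 3 and 4 and 3 without adult replicates 1 and 2. It was 1 with the 5 wild-type arrays alone and 1 with medians of probe sets.

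In the respiratory chain, of 67 genes 65 had a difference above 0 (median 0.60) and 8 were called, 11.9%: 3 of 33 in complex I, 1 of 4 in complex II, 1 of 8 in complex III, 1 of 9 in complex IV and 2 of 12 in ATP synthase. Complex medians lay between 0.51 and 0.68. Ndufb5 of complex I read 9.06, 9.03 and 9.50 in fetal cells and 8.24 and 8.21 in adult cells (0.98, SE 0.19, adjusted p = 0.0312). None of the 8 held: the count fell to 1 without fetal replicate 1 or 3 and 2 without adult replicate 2, was 3 without fetal replicate 2, and stood at 7 without adult replicate 1. Quantile normalization left 1 call and a median of 0.33. The 5 wild-type arrays alone gave 0 calls by limma and medians of probe sets 1.

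Mitochondrial ribosomal proteins, which make the chain subunits encoded in mitochondrial DNA, had 68 of 72 above 0 (median 0.56) and 10 called higher, 13.9%: 8 of 46 in the large subunit and 2 of 26 in the small one. Mrps9 read 8.70, 8.41 and 8.34 in fetal cells and 7.0 and 7.07 in adult cells (1.45, SE 0.18, adjusted p = 0.00621) and held, as did Mrpl47 and Mrpl20, both below background in adult cells and at least 1.45-fold and 1.43-fold higher. Mrpl46 had the largest difference of the 6 with the smallest p, 1.71 (SE 0.30), and lost its call without fetal replicate 1 or 3 or adult replicate 1 (up to 0.0868). The count was 6, 6 and 4 without fetal replicates 1, 2 and 3 and 11 and 9 without adult replicates 1 and 2. It was 2 with the 5 wild-type arrays alone and 1 with medians of probe sets. The arrays differed within the adult group here too, where the list's relative mean was -0.31 and -0.71 on replicates 1 and 2, against 0.09, -0.01 and 0.30 on the fetal arrays.

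Fuel use outside the cycle gave calls in both directions. Of 24 glycolysis genes 3 were called higher, 12.5%, and 1 lower, 4.17%, at a median of 0.22, which was -0.04 without adult replicate 2. The genes called higher were Ldha, lactate dehydrogenase A (1.07, SE 0.21), and the enzymes Aldoa (1.00, SE 0.21) and Tpi1 (1.00, SE 0.22). Ldha passed without adult replicate 1 alone, and Aldoa and Tpi1 in none of the fits without an array (adjusted p up to 0.160). Hk3, a hexokinase of myeloid cells, was lower in fetal cells, at 5.00, 5.30 and 5.19 against 6.91 and 6.26 in adult cells, at least 1.53-fold (adjusted p = 0.015), and lost its call without adult replicate 1 (adjusted p = 0.0616). In fatty acid oxidation Decr1, an enzyme for unsaturated chains, was higher, at 9.08, 8.84 and 8.86 in fetal cells and 7.61 and 7.96 in adult cells, and lost its call without adult replicate 1 (adjusted p = 0.0662). Cpt1a, the carnitine transferase that admits long chains to mitochondria, was lower, at 6.45, 7.38 and 6.96 in fetal cells against 8.26 and 8.01 in adult cells (-1.21, SE 0.26, adjusted p = 0.0406), and passed in the fit without fetal replicate 2 alone (up to 0.162). Fdft1, squalene synthase of cholesterol synthesis, was higher (1.39, SE 0.24, adjusted p = 0.02) and lost its call without fetal replicate 3 or adult replicate 1 (up to 0.0868). Shmt1, a serine hydroxymethyltransferase of one-carbon metabolism, was higher as well (1.28, SE 0.20, adjusted p = 0.0135) and lost it without adult replicate 1 (adjusted p = 0.0619).

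The redox genes that changed were few of many. Of 38 antioxidant genes 22 had a difference above 0, the median was 0.03 (-0.03 after quantile normalization), and 6 were called higher, 15.8%. Prdx4, a peroxiredoxin of the endoplasmic reticulum, read 9.11, 8.60 and 8.67 in fetal cells and 6.58 and 6.87 in adult cells, 4.18-fold higher (2.06, SE 0.21, adjusted p = 0.00242), and held. Glrx5, a mitochondrial glutaredoxin for iron-sulphur clusters, differed by 1.67 (SE 0.30) and lost its call without adult replicate 1 (adjusted p = 0.0973). Prdx1, Mgst3, Gstm5 and Glrx3 were called at 1.12 to 1.22 and lost it without at least 4 of the arrays. Without 1 array the count was 2 or 3, with the 5 wild-type arrays alone 1, and with medians of probe sets 2.

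Among genes of protein synthesis, of 19 cytosolic tRNA synthetases 18 had a difference above 0 (median 0.82) and 6 were called higher, 31.6%. Qars, for glutamine, read 8.02, 7.89 and 7.64 in fetal cells and 6.36 and 6.24 in adult cells (1.55, SE 0.23, adjusted p = 0.0128) and held. Farsb, Rars, Lars, Wars and Gars, for phenylalanine, arginine, leucine, tryptophan and glycine, were called at 0.82 to 1.20, and each passed in 1 of the 5 fits without an array. The count was 1 without fetal replicate 1 or 3, 3 without fetal replicate 2 or adult replicate 1, and 4 without adult replicate 2. It was 1 with the 5 wild-type arrays alone and 1 with medians of probe sets.

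All 28 subunits of the constitutive proteasome had a difference above 0 (median 0.69), and 7 were called higher, 25%: 2 of 12 in the core particle and 5 of 16 in the regulatory particle. Psmb1 of the core read 9.39, 9.48 and 9.47 in fetal cells and 8.48 and 8.44 in adult cells (0.99, SE 0.15, adjusted p = 0.0132), and Psmd2 of the regulatory particle 9.00, 8.87 and 8.93 against 8.00 and 7.78 in adult cells (1.04, SE 0.16). These 2 held, and the other 5 lost their calls without at least 3 of the arrays. Of 24 chaperones 6 were called higher, 25%, at a median of 0.71, and none held; Tcp1 (1.03, SE 0.16) and Hspa14 (1.17, SE 0.17) were lost without adult replicate 1 alone (adjusted p = 0.0556 and 0.0566). All 8 subunits of the CCT chaperonin, which folds actin and tubulin, lay between 0.55 and 1.15, with 3 called. Without 1 array the proteasome had 2 to 5 calls and the chaperones 1 to 3. After quantile normalization they had 1 and 0, with medians of 0.40 and 0.41. Both had 0 calls by limma with the 5 wild-type arrays alone and 1 with medians of probe sets.

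Of 43 ribosome biogenesis genes 41 had a difference above 0 (median 0.65) and 3 were called higher, 6.98%: Wdr75 (1.14, SE 0.22), Lyar (1.29, SE 0.27) and Nip7, at least 2.35-fold. None held, and the count was 0 without fetal replicate 2 or 3. Cytosolic ribosomal protein genes had a median of 0.10 over the 27 of 80 with a value, and of -0.08 after quantile normalization. Of these 27, Rpl30 (1.01, SE 0.19) and Rpl34 (0.82, SE 0.19) were called, 7.41%, both lost in the fits without any 1 fetal array.

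**Figure D3:**
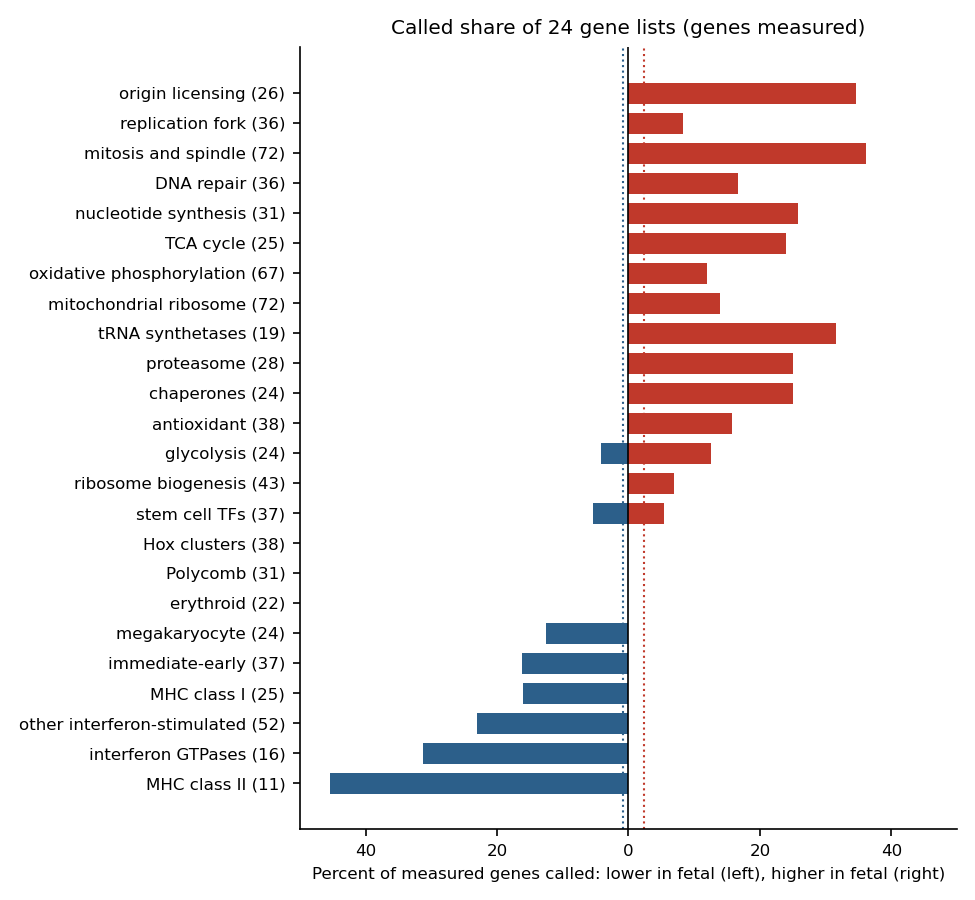
Percent of the measured genes of 24 lists that were called higher in fetal cells (red, to the right) or lower (blue, to the left), with the number of genes measured in brackets. Dotted lines give the shares over all genes, 2.36% and 0.832%; replication, mitosis and mitochondrial lists reach to the right, and interferon and MHC lists to the left.

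Genes of stem cell identity changed singly. Of 23 stem cell surface genes 16 had a difference below 0 (median -0.38). Of these 23, 2 were called, both higher, 8.70% against 2.36% of all genes. In the fit on the 9638 genes above background on average, 2 of 20 were called higher and 1 lower, against 566 and 105 of all. Ctnnal1, alpha-catulin, whose expression marks stem cells of adult mouse marrow, read 8.12, 7.90 and 7.94 in fetal cells and 6.5 and 6.15 in adult cells (1.67, SE 0.19, adjusted p = 0.00406) and held. Cd48, a surface antigen of progenitors that adult stem cells lack, read 9.02, 9.38 and 9.06 against 7.70 and 8.23 in adult cells (1.19, SE 0.20, adjusted p = 0.0199), and lost its call without fetal replicate 2 or 3 or adult replicate 1 (up to 0.0868). Of 37 stem cell transcription factors, Hmga2 and Arid3a were called higher and Nfia and Egr1 lower, 5.41% in each direction. Nfia, of the nuclear factor I family, read 5.43, 5.28 and 5.48 in fetal cells, below background, and 6.76 and 6.33 in adult cells, at least 1.49-fold lower (adjusted p = 0.014), and lost its call without adult replicate 1 (adjusted p = 0.0633).

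In chromatin, Dnmt3b, a de novo DNA methyltransferase, read 9.35, 9.48 and 9.53 in fetal cells and 7.89 and 7.94 in adult cells (1.54, SE 0.15, adjusted p = 0.00235) and held. It was the 1 call among 14 DNA methylation genes. None of 31 Polycomb genes was called, at a median of 0.29, while an unadjusted limma p under 0.05 was reached by 6 genes that were higher and 1 that was lower; Ezh2, the histone methyltransferase, read 9.80, 10.11 and 10.24 in fetal cells and 9.02 and 9.80 in adult cells. Of 38 Hox genes 9 were above background in a group and none was called by limma (unadjusted p under 0.05 in 5 genes). Over all 19958 genes, 2258 were higher and 1455 lower at that unadjusted threshold. Hoxa9 read 7.19, 7.95 and 7.39 in fetal cells and 7.71 and 7.44 in adult cells.

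Imprinted genes had 4 of 29 called, all higher, 13.8%. H19, an imprinted long noncoding RNA, read 9.41, 8.64 and 8.44 in fetal cells and 5.61 and 5.95 in adult cells and held. Its neighbour Igf2, a growth factor gene, read 8.04, 7.79 and 7.11 in fetal cells and 6.20 and 6.32 in adult cells (1.39, SE 0.27, adjusted p = 0.0316), and passed in the fit without fetal replicate 3 alone (up to 0.115). Dlk1, which hepatoblasts also express, read 7.37, 7.45 and 7.15 in fetal cells and 6.31 and 6.23 in adult cells (adjusted p = 0.027), and is on the hepatocyte list as well. It lost its call without each array (up to 0.0792). The median over the list was 0.19, with and without quantile normalization.

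Of 44 actin and related genes 3 were called higher, 6.82%, and 1 lower, 2.27%. Cnn3, a calponin read by 1 probe set, was at 6.45, 6.85 and 7.22 in fetal cells and 3.25 and 3.41 in adult cells. Dstn, an actin-depolymerising factor, read 8.91, 8.57 and 8.65 against 6.28 and 5.50 in adult cells. Both held, at least 1.83-fold and 6.0-fold higher. Myl10, a myosin light chain, was lower in fetal cells, at 6.63, 5.80 and 7.38 against 9.87 and 8.89 in adult cells. Myl10 did not hold: without adult replicate 1 the list had 0 genes called lower. Marcks, also called higher, did not hold either, and its sign reversed in the alternative table of exon rows. Over 44 genes of this list the median was 0.10, and -0.04 after quantile normalization. The endothelial gene Egfl7, also expressed by blood stem cells, read 8.20, 8.16 and 8.86 in fetal cells and 6.85 and 7.36 in adult cells (1.3, SE 0.26, adjusted p = 0.0316) and passed without adult replicate 2 alone (up to 0.145). Of 20 endothelial genes it was the 1 called, and 7 of them, Kdr and Flt1 among these, lay below background on all 5 arrays.

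On the adult side, interferon-stimulated genes were the largest group. Type I and type II interferons act through JAK kinases and STAT factors on genes that hold a short response element, and the products restrict viruses and intracellular bacteria. Of 16 GTPases of the guanylate-binding and immunity-related families, all had a difference below 0 (median -0.84) and 5 were called lower, 31.2% against 0.832% of all genes. Iigp1 read 5.28, 5.16 and 5.29 in fetal cells, below background, and 6.77 and 6.90 in adult cells. Mpa2l, read by 1 probe set, lay at 2.58, 2.21 and 3.10 in fetal cells and at 8.08 and 7.21 in adult cells. Both held. Ifi47 was above background in both groups, at 7.79, 8.36 and 8.36 in fetal cells and 9.48 and 9.32 in adult cells (-1.23, SE 0.21, adjusted p = 0.0191), and lost its call without adult replicate 1 (adjusted p = 0.0764). Gbp2 and Gbp3 were at least 1.89-fold and 1.28-fold lower and passed in 1 of the 5 fits each. The count was 3 or 4 without 1 array, 2 with the 5 wild-type arrays alone and 1 with medians of probe sets.

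Of 52 other interferon-stimulated genes 48 had a difference below 0 (median -0.70) and 12 were called lower, 23.1%. Sp100, of PML nuclear bodies, read 6.94, 7.35 and 7.07 in fetal cells and 8.85 and 9.82 in adult cells, 4.64-fold lower (-2.21, SE 0.27, adjusted p = 0.00591). Zbp1, a sensor of Z-form nucleic acid, read 5.65, 5.42 and 5.58 against 7.02 and 7.46 in adult cells, at least 2.41-fold lower. Ifit3, which binds viral RNA in a complex, read 5.44, 5.31 and 5.43 against 7.06 and 7.29 in adult cells. These held, and so did Ifi44. Oas2, which senses double-stranded RNA, lost its call without fetal replicate 1 or 3 (up to 0.0716), and Isg20, an exonuclease, kept it without adult replicate 2 alone (up to 0.124). The count was 6, 6 and 5 without fetal replicates 1, 2 and 3 and 7 and 9 without adult replicates 1 and 2. It was 4 with the 5 wild-type arrays alone and 6 with medians of probe sets. The genes that carry the interferon signal were not called: of 18 receptors, kinases, STAT and IRF factors the median was -0.07, with 0 called by limma over all genes and 5 at an unadjusted p under 0.05.

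The interferon-stimulated response element has a core of GAAA, any 2 bases, and GAAA. On either strand it was in 6 of 8 promoter windows of the GTPase list and 16 of 47 of the other list (34.0%), against 2.81% of all windows. Within both lists together it was in 36.8% of 19 windows of called members and 41.7% of 36 windows of the rest. The windows below are shown for 5 called members and 2 that were not called, with the match in capitals (TTTC, 2 bases, TTTC is the same core on the other strand).
Gbp2 (chr3:142620579-142620638, + strand): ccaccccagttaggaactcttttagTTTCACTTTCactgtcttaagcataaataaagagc
Ifit3 (chr19:34583382-34583441, + strand): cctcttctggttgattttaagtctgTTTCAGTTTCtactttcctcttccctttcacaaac
Oas3 (chr5:120777700-120777759, - strand): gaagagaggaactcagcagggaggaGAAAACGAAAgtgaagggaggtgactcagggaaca
Ifi203 (chr1:173942493-173942552, - strand): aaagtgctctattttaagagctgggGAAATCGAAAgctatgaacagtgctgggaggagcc
Trim30a (chr7:104465195-104465254, - strand): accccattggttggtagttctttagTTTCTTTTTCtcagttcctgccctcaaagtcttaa
Isg15 (chr4:156200850-156200909, - strand): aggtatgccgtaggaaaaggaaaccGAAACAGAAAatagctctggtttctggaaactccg
Irgm1 (chr11:48871421-48871480, - strand): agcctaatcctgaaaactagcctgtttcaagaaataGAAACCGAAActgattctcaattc
Isg15, a ubiquitin-like modifier and a standard marker of the response, read 5.42, 6.76 and 6.11 in fetal cells and 7.76 and 6.79 in adult cells (-1.18, SE 0.38, adjusted p = 0.138). Its arrays did not overlap, but they spread widely within each group. Irgm1 did overlap, at 8.07, 7.13 and 7.95 in fetal cells and 9.07 and 7.69 in adult cells. Trim30a and Ifi203, chosen here for their windows, were small changes at high level, -0.85 each, and lost their calls without each of the 5 arrays (up to 0.132 and 0.179).

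Antigen presentation genes were also called lower. Of 11 MHC class II genes, which present peptides to CD4 T cells, 10 had a difference below 0 (median -1.2) and 5 were called, 45.5%. H2-Ab1 held, at 5.40, 5.70 and 5.59 in fetal cells and 8.25 and 7.68 in adult cells, at least 3.99-fold. H2-Ob, a chain of the peptide-loading regulator, was at least 3.38-fold lower, at 6.26, 5.68 and 5.55 in fetal cells against 8.26 and 7.38 in adult cells, and lost its call without fetal replicate 2 or 3 or adult replicate 1 (up to 0.114). H2-DMa, of the peptide exchange factor, read 6.67, 6.11 and 6.59 against 7.99 and 7.72 in adult cells (-1.40, SE 0.27). H2-Ob, H2-Ab1 and H2-Aa are next to each other among the measured genes of chromosome 17. Without fetal replicates 1, 2 and 3 the count was 4, 2 and 1, and without adult replicates 1 and 2 it was 1 and 3. The 5 wild-type arrays alone gave 1 and medians of probe sets 2.

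Of 25 class I and peptide-loading genes 20 had a difference below 0 (median -0.43) and 4 were called lower, 16.0%. H2-K1, a class I heavy chain, read 7.69, 7.78 and 8.32 in fetal cells and 9.48 and 9.66 in adult cells (-1.64, SE 0.22, adjusted p = 0.00909), and H2-D1 7.66, 7.17 and 7.50 against 8.80 and 9.26 in adult cells. Both held. Tap1, the peptide transporter, read 6.09, 6.45 and 6.26 against 7.59 and 7.40 in adult cells (-1.23, SE 0.21) and lost its call without fetal replicate 1 or 3 or adult replicate 1 (up to 0.0769). Heavy chain genes of the mouse H2 complex are near-identical copies and vary between strains, so their probe sets may share signal, and the values of H2-K1, H2-D1, H2-Q6 and H2-gs10 are uncertain one by one. Without fetal replicate 3 the class I list had 2 calls, and without each of the other arrays 3 or 4. With the 5 wild-type arrays alone it had 2.

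Among sensors and cytokine receptors, Nod1, a sensor of bacterial cell wall, was at least 1.69-fold lower and Casp1, the inflammasome protease, at least 2.93-fold. Casp1 lay at 5.57, 5.23 and 6.31 in fetal cells against 7.41 and 7.86 in adult cells. Both genes held. Il18r1 read 5.00, 4.71 and 4.32 in fetal cells and 5.92 and 6.49 in adult cells, at least 1.18-fold lower, and lost its call without adult replicate 2 (adjusted p = 0.0597). Il1r1, the receptor of interleukin 1, read 5.28, 5.04 and 6.63 against 7.47 and 8.04 in adult cells (-2.11, SE 0.45, adjusted p = 0.0402) and passed without fetal replicate 3 alone (up to 0.136). Il12rb2 was the 1 receptor of 37 called higher, at 7.07, 7.14 and 6.54 in fetal cells against 5.90 and 5.68 in adult cells, at least 1.93-fold, and it passed in 1 of the 5 fits.

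Immediate-early genes, which cells switch on within minutes of a stimulus, cell dissociation included, had 35 of 37 differences below 0 (median -0.52) and 6 called lower, 16.2%. Fosb, an AP-1 subunit, read 7.67, 7.29 and 8.02 in fetal cells and 9.97 and 9.70 in adult cells, 4.53-fold lower (-2.18, SE 0.23, adjusted p = 0.00306), and held. Dusp1, a phosphatase of MAP kinases, read 7.69, 8.91 and 8.10 against 10.50 and 10.13 in adult cells (-2.08, SE 0.32), and lost its call without fetal replicate 3 or adult replicate 1 (up to 0.0573). The orphan receptor Nr4a1 differed by -1.53 (SE 0.24), the chemokine Ccl3 by -1.28 (SE 0.21), the eIF2 phosphatase subunit Ppp1r15a by -1.09 (SE 0.19) and Egr1 by -0.93 (SE 0.18). The relative mean of the list was -0.08, -0.12 and -0.23 on fetal replicates 1 to 3 and 0.66 and 0.42 on the adult arrays. The count was 5, 4 and 3 without fetal replicates 1, 2 and 3 and 2 and 4 without adult replicates 1 and 2. It was 1 with the 5 wild-type arrays alone and 2 with medians of probe sets. The labels do not say how long each tissue was handled before sorting, and its part was not tested.

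Other genes of the adult side read as follows. Alcam, an adhesion molecule, read 6.12, 5.34 and 5.99 in fetal cells and 8.49 and 8.36 in adult cells. Muc13, a transmembrane mucin, read 6.72, 7.29 and 7.53 against 10.58 and 10.07 in adult cells, 8.82-fold lower. Zbtb20, a transcriptional repressor, read 5.65, 6.75 and 5.99 against 8.48 and 8.50 in adult cells, 5.12-fold lower (adjusted p = 0.00683). All 3 held. Cxcr4, the receptor that keeps stem cells in marrow, read 8.88, 8.89 and 9.28 in fetal cells and 9.87 and 9.81 in adult cells (-0.83, SE 0.19, adjusted p = 0.0495) and lost its call without each array (up to 0.169).

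Clnk, an adaptor of immunoreceptor signalling, was 4.27-fold lower, at 6.09, 5.92 and 6.38 in fetal cells against 8.06 and 8.39 in adult cells. Rgs1, which dampens chemokine receptors, was 3.92-fold lower, at 8.42, 7.66 and 8.38 against 10.29 and 9.96 in adult cells. Both held, as did Dnajc6, an auxilin of clathrin uncoating (at least 3.18-fold), the cytochrome P450 gene Cyp2j9 (at least 3.46-fold) and Pgr, the progesterone receptor (at least 1.90-fold). Clec2d, a ligand of a natural killer receptor, was at least 3.05-fold lower and lost its call without fetal replicate 2 or either adult array (up to 0.0764). Cd72, a B cell antigen, was at least 2.55-fold lower and passed without adult replicate 1 alone (up to 0.0953). Of the 25 genes taken by size on this side, 16 held.

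Among lineage genes, Dntt, the terminal transferase of lymphoid progenitors, read 4.89, 4.58 and 4.33 in fetal cells and 8.93 and 9.82 in adult cells and held, at least 10.6-fold lower. It was the 1 gene called lower among 31 lymphoid genes, whose median was 0.05. Among 24 megakaryocyte genes, Pf4, Thbs1 and Itga2b were called lower, 12.5% against 0.832% of all genes. Pf4 was at least 4.36-fold lower, with fetal arrays at 5.14, 5.40 and 6.31 against 7.98 and 8.43 in adult cells. Itga2b, integrin alpha IIb, read 5.95, 6.25 and 6.14 in fetal cells against 6.83 and 6.90 in adult cells. Thbs1, thrombospondin 1, lost its call without adult replicate 1 (adjusted p = 0.0572), Pf4 passed without fetal replicate 3 alone (up to 0.0702), and Itga2b was lost without each array (up to 0.133). The list had 1, 1 and 2 calls without fetal replicates 1, 2 and 3 and 0 and 2 without adult replicates 1 and 2. The list's mean was 6.14 to 6.20 on fetal and 6.44 to 6.57 on adult arrays, with 5 of 24 genes below background on all of them.

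Granule genes split: Ctsg, cathepsin G, was at least 1.48-fold lower and Stfa1, a stefin, at least 2.43-fold higher, with Stfa1 at 7.2, 5.63 and 8.91 on the fetal arrays. Ctsg lost its call without each array (up to 0.0834), and Stfa1 passed without fetal replicate 2 alone (up to 0.105). None of 22 erythroid genes was called by limma (median -0.16, unadjusted p under 0.05 in 5 genes), with 11 of them below background on all 5 arrays, Klf1 and the embryonic globins among these. Car2, carbonic anhydrase 2, read 9.11, 8.67 and 8.59 in fetal cells and 9.67 and 10.00 in adult cells (adjusted p = 0.0603), and Tfrc, the transferrin receptor, 7.70, 8.29 and 8.13 against 6.65 and 7.34 in adult cells (adjusted p = 0.0784). Of 18 T and NK cell genes 13 were below background on all 5 arrays, as were 9 of 13 marrow stroma genes and 10 of 19 macrophage and dendritic cell genes. None of these 3 lists had a call by limma, and at an unadjusted p under 0.05 they had 1, 4 and 3 genes. That unadjusted threshold was passed by 2258 higher and 1455 lower genes of all 19958.

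**Figure D4:**
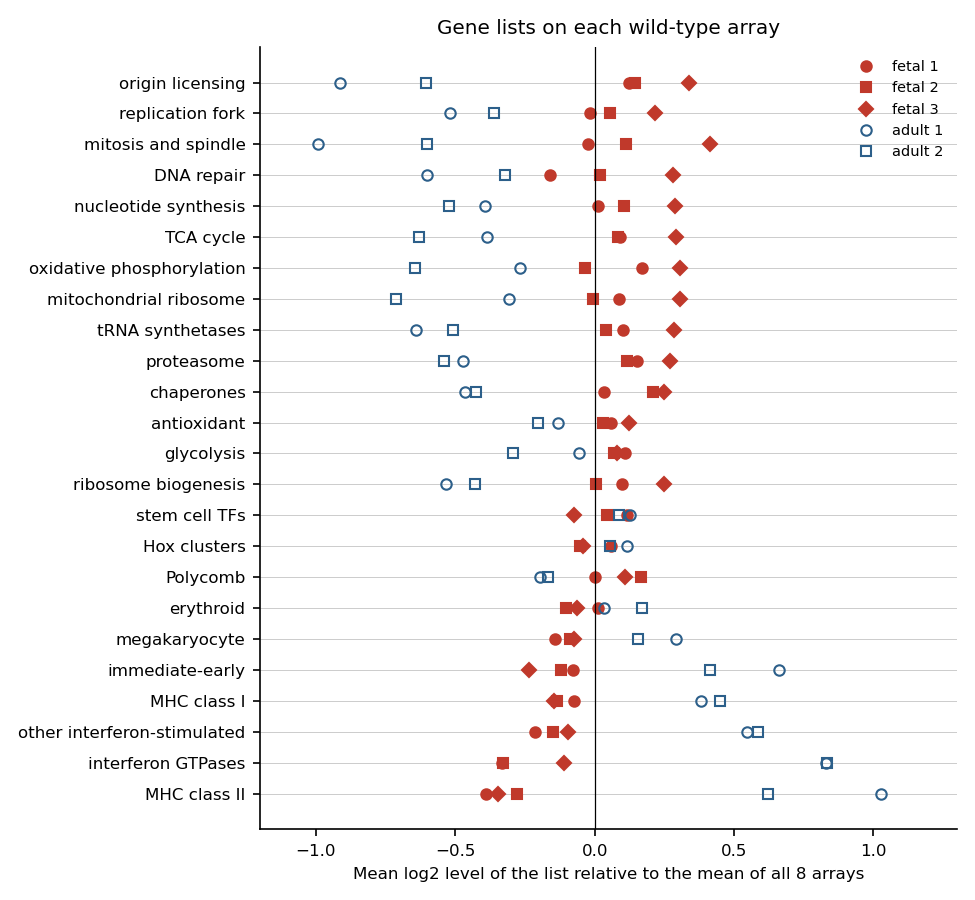
Mean log2 level of 24 gene lists relative to their mean over all 8 arrays (x axis), on fetal replicates 1 to 3 (red, filled) and adult replicates 1 and 2 (blue, open). Fetal arrays lie right of both adult arrays for the replication, mitosis and mitochondrial lists and left of them for the interferon, MHC and immediate-early lists.

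Averages over a gene can hide a change in part of its transcript. Of 11232 genes with at least 3 probe sets above background, 379 (3.37%) had unequal differences among their probe sets by limma's F test. Slc7a2, an arginine transporter with a gene average that differed by 0.39, held a probe set at 9.54, 9.80 and 9.19 in fetal cells and 5.60 and 3.61 in adult cells. The mean of its other probe sets was 6.85, 6.54 and 6.47 in fetal cells and 6.82 and 7.06 in adult cells. In Slit1, a guidance ligand, a probe set ran the other way, at 6.55, 5.96 and 6.84 in fetal cells against 9.81 and 10.91 in adult cells. In Wdr1, an actin disassembly factor, a probe set read 10.45, 8.06 and 10.27 in fetal cells and 5.54 and 5.24 in adult cells, while the rest of the gene averaged 8.29, 8.05 and 8.27 in fetal cells against 8.57 and 8.20 in adult cells.

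In the other 9 genes named by the rule, single probe sets also moved apart from their gene. Those of Myo9a, Dnajc25, Myom1, Rab3gap2, Ddx1 and Ssb were higher in fetal cells, by 2.65 to 6.07. Those of C1qtnf12, Iars and Atp6v1a were lower. When each probe set kept a variance of its own, an alternative chosen after seeing the data, 0 probe sets were called after adjustment (lowest adjusted p = 0.109), with 9581 of 102933 at an unadjusted p under 0.05 where 5147 are expected. On simulated data the F test made 33 false calls. Without adult replicate 2 it called 1747 genes, and without fetal replicates 1, 2 and 3 it called 217, 223 and 236. These genes are therefore listed as values and not as altered transcripts.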

How the data were processed

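Per the submitters' processing notes, the deposited values are RMA intensities; they are on a linear scale from 3.03 to 13252, and their version is unknown here. A second deposited table of 199508 exon rows served as an alternative. The intensities were converted to log2, and no other normalization was applied to the deposited log2 values; array medians lay between 6.20 and 6.27. Of 225993 probe sets, 208881 had exactly 1 gene symbol in the platform annotation, 1668 several and 15444 none. They gave 19958 genes with a median of 8 probe sets; 17255 symbols were current in RefSeq (GRCm38.p6), 2585 were updated and 118 kept. Genes were averaged over probe sets and fitted with limma 3.58.1 (R 4.3.3, lmFit and eBayes, 1 coefficient per group, 8 arrays, two-sided). Probe set usage was tested with diffSplice. Python 3.11.15 prepared the tables. The number of arrays limits the precision.

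On simulated arrays of 19958 genes the fit recovered 4%, 26%, 90% and 96% of genes changed 1.5-, 2-, 3- and 4-fold, with 6 false calls. The diffSplice test, on 11232 genes, recovered 6%, 60%, 84% and 94% of probe set shifts of 2, 3, 4 and 5 on the log2 scale. It made 33 false calls. In both simulations the noise was drawn separately for each gene or probe set on each array. Shifts shared by many genes of an array were absent, so these false calls do not measure those in the deposited data. Named genes are, per direction, the 25 called genes of largest difference without overlap and above background in a group (predicted genes and small RNAs not named), up to 6 of smallest p per list and direction, the gate, lineage and sex-linked genes, and 12 usage genes; others were named after their values were seen. The lists, 62 in number, and the members were chosen with earlier results of these data known, so they are described by counts and medians. A list of let-7 host genes, also drawn up, had 0 members with a value. Same-numbered fetal and adult arrays deviated together at r = 0.112 and 0.045, over 2 shared numbers, so the numbers were not taken as pairs. Alternatives were another normalization, filters, probe set summaries, variance models, the exon table, the replicate block, a stricter threshold and each array left out.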

Additional observations from a re-analysis of the deposited data

How the results depend on the processing

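Counts of calls depended on the setting more than their directions did, but several settings could not change a direction. The groups of every called gene did not overlap, so its sign was fixed in advance when 1 array was left out. It was also fixed with the 5 wild-type arrays alone, where the group means are the same. Genes called higher in fetal cells numbered 471 here, 74 with the 5 wild-type arrays alone, 231 after quantile normalization, 128 with medians of probe sets, 233 in the exon table, 198 with Y-linked level as a covariate, 53 at an adjusted p under 0.01, and 140 to 416 with 1 array left out. Genes called lower numbered 166 here, 46 with the 5 wild-type arrays alone, 51 with medians, 98 with bright probe sets alone, 105 with bright genes alone, 89 in the exon table, 85 with the covariate, 35 at the stricter threshold, and 83 to 158 with 1 array left out. Median centring gave 628 and 149. With the replicate number as a block, 111 were called higher, 74 lower and 185 for unequal probe sets; the numbers are not known to pair samples. Unequal probe sets were called in 379 genes here, 130 with 5 arrays, 138 at the stricter threshold, 0 with a variance per probe set, and 217 to 1747 with 1 array left out. The fit on 5 arrays has fewer samples behind its spread; for the other settings the cause was not tested. Marcks reversed in the exon table (-0.32, adjusted p = 0.519), and its cause was not tested. Of the 471 genes called higher, 1 had the opposite sign with medians of probe sets and 2 with bright probe sets alone. Of the 166 called lower, 0 did in either setting. For the named genes, 8651 of the values under alternatives kept their side of the threshold, 1009 lost the call and 91 gained it. Values of genes called in neither fit were counted among the 8651 whatever their sign. Signal over background limits the folds of 91 genes called higher and 107 called lower, whose dimmer group lay below background. Of these, 4 and 21 lay below it in both groups and get no fold.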

Other observations

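Genes of quiescence and of FOXO activity had 19 of 26 differences below 0, at a median of -0.48, which was -0.23 without adult replicate 1, where none was called by limma; none was called with the 5 wild-type arrays alone. The orphan receptor gene Nr4a1 and Egr1 were lower in fetal cells, and Cdkn1c was higher. Nr4a1 passed without each array except adult replicate 1 (adjusted p = 0.0668 then), and Egr1 and Cdkn1c in none of those fits. Of 30 genes of RNA binding and splicing none was called by limma, while 22 had a difference above 0 and 8 were higher at an unadjusted p under 0.05, at a median of 0.31 (0.07 after quantile normalization). All 7 measured GTPases of the lymphoid GIMAP family had a difference above 0 (median 0.49), and 1 was called, Gimap5, which was below background in both groups.

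Promoters of the 2 sides differed in base composition. The median ratio of observed to expected CpG was taken in windows of the 250 bases before the start. It was 0.784 over 438 windows of genes called higher in fetal cells and 0.360 over 170 windows of genes called lower. Over 18963 windows of measured genes it was 0.575, and over those of genes above background in a group 0.714. It was 0.856 in the mitotic list, 0.128 in MHC class II and 0.205 in interferon-stimulated genes other than the GTPases. Median GC content was 59.2% in genes called higher and 52.6% in genes called lower. These are descriptions without a test, and the lists overlap with the called genes.

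Some called genes are neighbours among the measured genes. On the higher side 36 of 470 placed genes stood in 17 runs of adjacent genes, with Mrpl35, Immt and Ptcd3 on chromosome 6 and Nasp, Akr1a1 and Prdx1 on chromosome 4 as the longest, at 3 genes each. On the lower side 11 of 162 stood in 5 runs, Ifit3 with Ifit3b and Oas2 with Oas3 among them. Chromosome 17, which carries the H2 complex, had 1.65% of its 967 genes called lower, and chromosome 19 had 1.90% of 685, against 0.832% of all. Chromosome 13 had 1 of 732 called lower.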
